A study of Mus musculus with 2 samples.

Results

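Ccl3, Ccl4, Ccl5 and Xcl1 are secreted chemokines, and Ccr1 and Xcr1 are receptors for some of them. These 6 genes, 4 ligands and 2 receptors, were picked by symbol from the 32589 genes listed in the count tables. They were followed through the cell classes of 2 single-cell libraries from livers of mice carrying cholangiocarcinoma (CCA), a cancer of the bile duct epithelium. The tumors had been started by hydrodynamic tail vein injection of the oncogenes NICD, the intracellular domain of Notch, and myr-AKT, a membrane-bound AKT. Both libraries came from shYT animals, in which doxycycline switches on short hairpin RNAs against Yap1 and Wwtr1 (the YAP and TAZ genes), and in both the hairpins were induced from day 25 after injection. One group received PBS and the other the anti-PD-1 antibody clone RMP1-14 on days 26, 29 and 32, and tumors were taken on day 33. The rtTA3 driver uses the ubiquitous CAG promoter, so that host immune cells of both groups could carry the hairpins as well as the tumor. No library without the hairpins was compared here, and the labels used here give neither the age, strain or sex of the mice, nor which of the 2 shYT lines was used. The study describes several animals per group, used mice of both sexes over its experiments and left out hashtag labels at this step, so that cells could not be traced to an animal and each group was read as 1 sample.

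Chemokines are small secreted proteins that draw leukocytes along a gradient by binding G protein-coupled receptors on the cell surface. CCL3 and CCL4 (the macrophage inflammatory proteins MIP-1α and MIP-1β) and CCL5 (RANTES) are made by activated macrophages and by cytotoxic lymphocytes. CCL3 and CCL5 signal through CCR1. XCL1, or lymphotactin, comes from NK cells and activated CD8+ T cells, and its receptor XCR1 is carried by the cross-presenting conventional type 1 dendritic cell (cDC1). Release of CCL5 and XCL1 by lymphocytes is a known way of drawing cDC1s into tumors.

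The coding stretches below, codons 26 to 75 of each ligand, show what sets the families apart. They are read 5′ to 3′ along the spliced coding sequence of GRCm38, and the cysteine codons stand in capitals.
Ccl3: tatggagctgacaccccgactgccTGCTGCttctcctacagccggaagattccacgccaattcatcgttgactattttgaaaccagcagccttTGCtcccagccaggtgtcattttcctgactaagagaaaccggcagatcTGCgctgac
Ccl4: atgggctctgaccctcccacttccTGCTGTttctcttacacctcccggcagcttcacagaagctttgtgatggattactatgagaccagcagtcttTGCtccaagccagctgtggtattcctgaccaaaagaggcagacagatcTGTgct
Ccl5: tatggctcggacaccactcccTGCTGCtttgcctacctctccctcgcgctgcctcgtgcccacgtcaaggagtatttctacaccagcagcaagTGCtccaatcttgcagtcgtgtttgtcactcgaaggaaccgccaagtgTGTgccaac
Xcl1: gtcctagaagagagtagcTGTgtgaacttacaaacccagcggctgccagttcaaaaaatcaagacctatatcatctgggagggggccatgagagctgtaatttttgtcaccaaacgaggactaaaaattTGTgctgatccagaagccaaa
Ccl3, Ccl4 and Ccl5 each hold 4 cysteine codons, the first of them an adjacent pair that gives the CC family its name. Xcl1 holds 2 and no pair, which is the mark of the C family. Ccl3 and Ccl4 were identical at 108 of 145 aligned bases (74.5%), the closest of the 6 ligand pairs.

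Ccl3, Ccl4 and Ccl5 lie together on chromosome 11 of mm10. Ccl5 (ENSMUSG00000035042, chr11:83525778-83530518, minus strand) is followed by Ccl3 (ENSMUSG00000000982, chr11:83647844-83649355, minus strand) and Ccl4 (ENSMUSG00000018930, chr11:83662584-83664683, plus strand), with 117325 and 13228 bases between neighbors. Xcl1 (ENSMUSG00000026573, chr1:164931644-164935527, minus strand) lies apart from them. Xcr1 (ENSMUSG00000060509, chr9:123852315-123862029, minus strand) and Ccr1 (ENSMUSG00000025804, chr9:123962124-123968692, minus strand) are 100094 bases apart. Because Ccl3 and Ccl4 are so alike, shared reads were checked for. None of the 736 distinct 31-base words of the Ccl3 transcripts, nor of the 630 of Ccl4, 502 of Ccl5 and 493 of Xcl1, occurred in transcripts of another gene. For Ccr1 18 of 2803 words (0.642%) did, with Ccr1l1 and Ccr3 among the sharers, and for Xcr1 135 of 4423 (3.05%).

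UMIs (unique molecular identifiers) number the captured RNA molecules. With cells limited to between 500 and 5000 genes and to no more than 10% of UMIs from mitochondria, 15531 cells of 19397 barcodes remained with PBS and 16360 of 19451 with anti-PD-1. Marker genes placed 75.6% and 72.2% of them in 1 class, and 17 classes held at least 50 cells in both libraries. Between 0 and 1 of a class's own lineage markers was at 0 in a library. The libraries stand apart in a way that the treatment does not set. Xist, the RNA of the inactive X chromosome in female cells, had 18452 UMIs with PBS and 11 with anti-PD-1, while Y-linked genes had 3113 and 15323, so that the PBS library held cells of both sexes. The main results are therefore given also over the cells that had Y-linked UMIs and none of Xist, called Y-linked cells here. The libraries shared 219 barcode sequences.

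Levels are counts per 1000000 UMIs (CPM) of a class, summed over its cells. Each group had 1 library, so no test was possible, and every interval quoted is a 95% interval for counting error only, which leaves out variation between animals and preparations. Intervals from summed UMIs also leave out variation between the cells of a class. Ratios are log2 of CPM plus 5, anti-PD-1 over PBS, and a pair of gene and class is called higher or lower past 1 in size, a 2-fold change. Of the 102 pairs, 79 had at least 20 UMIs over both libraries. Of these, 33 were higher with anti-PD-1, 1 was lower and 45 lay between. Over all genes and the same classes 2.78% of 166183 pairs were higher and 2.79% lower. Ligands made up 32 of the higher pairs (of 65 counted) and receptors 1 (of 14). The median gene of a class lay between -0.29 in neutrophils and -0.01 in CAFs (cancer-associated fibroblasts), so that a ratio of 0 is slightly above the typical gene.

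**Figure D1:**
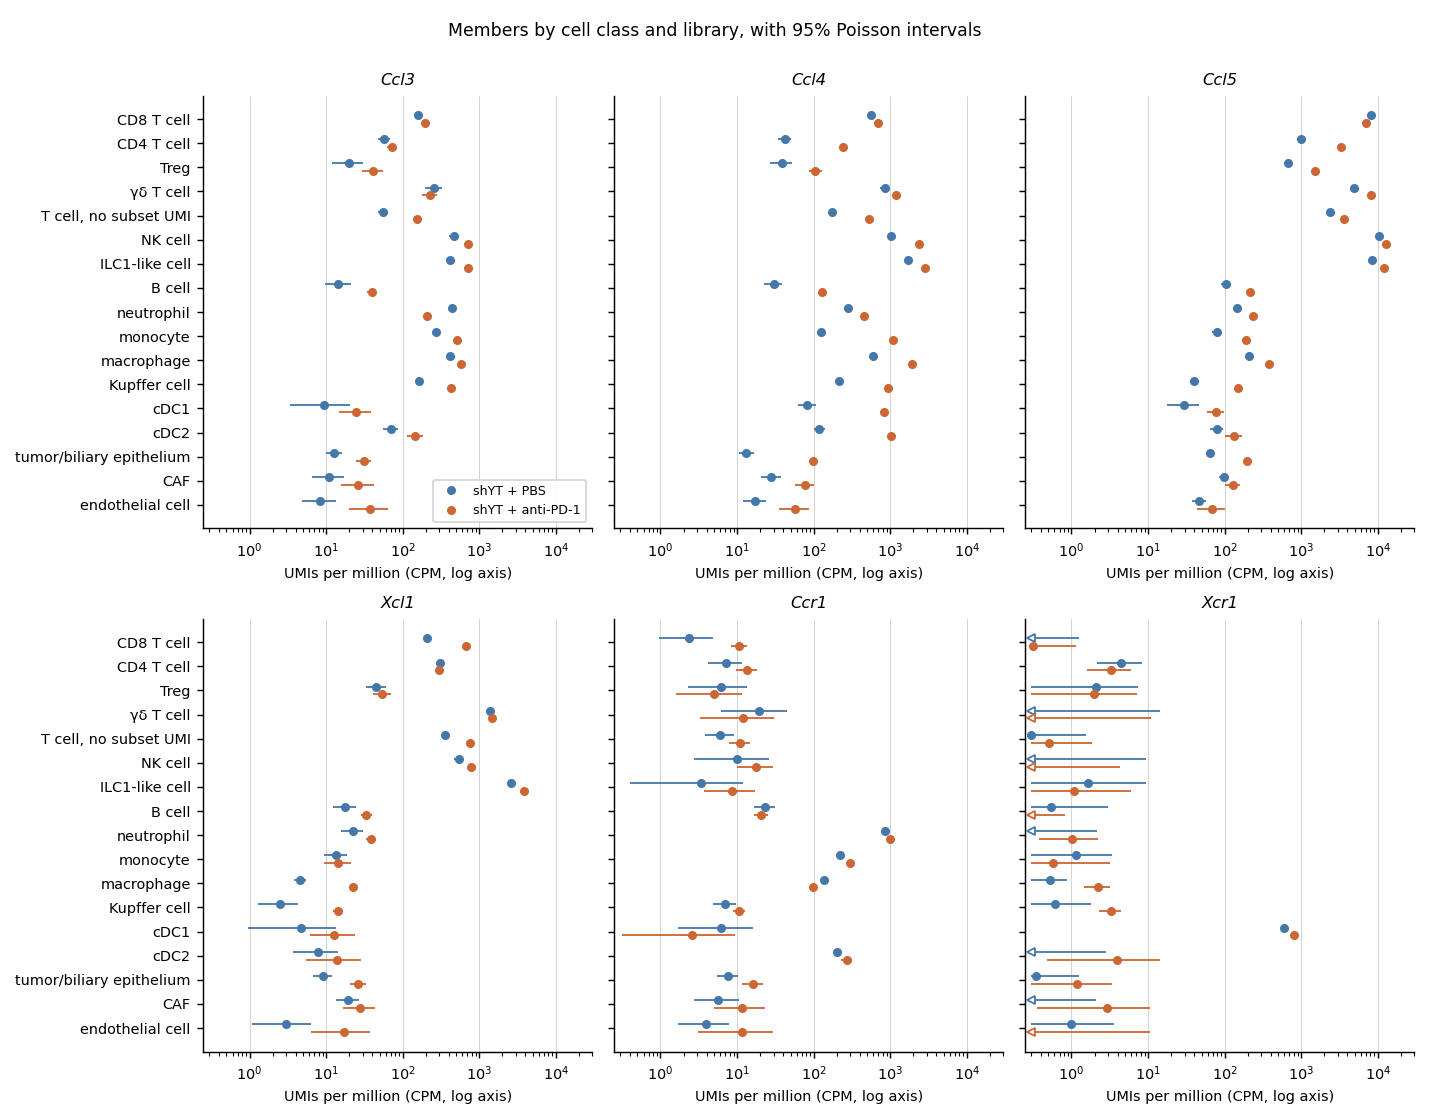
Level of each of the 6 genes in each cell class (CPM, log axis) with PBS and with anti-PD-1, with 95% intervals for counting error; open triangles mark classes with 0 UMIs. Ccl4 stood higher with anti-PD-1 in every class shown, from 557 to 696 CPM in CD8+ T cells to 125 to 1097 CPM in monocytes, while Ccl3 in neutrophils went the other way, from 434 to 208 CPM.

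Ccl4 was the ligand that differed most widely between the libraries. It was higher with anti-PD-1 in 13 of 17 classes, and the ratio was above 0 in the other 4 as well. In 4 of the 13 (B cells, epithelial cells, CAFs and endothelial cells) the amount was under 2 times what free RNA, set loose by lysed cells, would give in both libraries, and with that amount taken off CAFs and endothelial cells were at -0.084 and -0.65. In macrophages, which held the most Ccl4 UMIs of any class in either library, the level went from 588 CPM with PBS (15566 UMIs) to 1924 CPM with anti-PD-1 (24374 UMIs), a log2 ratio of 1.70 (1.67 to 1.73). Across all genes 2.24% were called higher in macrophages.

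The highest ratios of Ccl4 were in cells of the monocyte and dendritic line. Monocytes went from 125 to 1097 CPM (log2 ratio 3.09, 2.92 to 3.26), where 3.66% of genes were higher. In cDC1s, which take up and cross-present tumor antigen, Ccl4 went from 82.4 to 833 CPM (3.26, 2.87 to 3.67), and in cDC2s, which mainly prime CD4+ T cells, from 118 to 1036 CPM (3.08, 2.82 to 3.34). Over all genes 4.19% were higher in cDC1s and 3.14% in cDC2s. The intervals of these 3 ratios overlap, so their order is not resolved. With 1 more marker asked for in each class (the stricter gate) the ratio was 1.98 in cDC2s and 3.55 in cDC1s. A single anti-PD-1 cell held 130 of the 529 Ccl4 UMIs of cDC2s, and another 131 of the 649 of cDC1s. The cDC2s also differed in their markers, with monocyte markers at 800 and 1927 CPM and cDC2 markers at 2625 and 1757 CPM. In Kupffer cells, the resident macrophages of the liver sinusoid, Ccl4 went from 213 to 924 CPM (2.09, 2.00 to 2.18).

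Thinning each cell to 1000 UMIs, which removes differences in depth, gave the share of cells with a Ccl4 UMI. In macrophages it was 27.2% with PBS and 53.0% with anti-PD-1 (51.4% and 80.9% before thinning). In monocytes it was 6.72% (4.35 to 9.84) and 36.9% (30.6 to 43.7), and in cDC1s 2.56% and 37.9%. Epithelial cells, which are not a known source, had 1.78% and 12.3%, at median depths of 2687 and 1844 UMIs against 7931 and 8491 UMIs in macrophages. The PBS share of cDC1s thus overlapped that of epithelial cells (1.06 to 2.79), that of monocytes lay above it, and with anti-PD-1 both classes lay above it.

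Among lymphocytes the level of Ccl4 was highest in ILC1-like cells and NK cells, but the ratio was highest in CD4+ T cells. ILC1-like cells, the tissue-resident relatives of NK cells, went from 1685 to 2825 CPM (log2 ratio 0.74, 0.64 to 0.85), and NK cells from 1029 to 2372 CPM (1.2, 1.05 to 1.36). With the stricter gate the ILC1-like ratio was 1.43, past the 2-fold line. CD4+ T cells went from 41.8 to 244 CPM (2.41, 2.13 to 2.70). Regulatory T cells went from 38.2 to 106 CPM (1.35). T cells placed in no subset went from 171 to 531 CPM (1.61). They are called T cells with no subset UMI here, although cells with Cd8 UMIs beside those of Cd4 or Foxp3 are among them. The regulatory T cell value was 0.92 with free RNA taken off and 0.69 with thinned cells, both short of the 2-fold line. The value of T cells with no subset UMI was 0.59, also short of it, when each cell was assigned to the class with the nearest mean profile. Over all genes 3.98% were higher in NK cells, 2.89% in regulatory T cells and 1.92% in T cells with no subset UMI. CD8+ T cells started higher than the other T cells with a log2 ratio past 1 and differed little, with 557 CPM and 696 CPM (0.32, 0.24 to 0.40), and γδ T cells had 843 and 1195 CPM (0.50). A single PBS γδ T cell held 135 of the 219 Ccl4 UMIs of its class. The thinned share of γδ T cells with a Ccl4 UMI was 12.3% and 35.3%.

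The value in CD8+ T cells depended on which cells were counted. Over Y-linked cells (73 with PBS and 725 with anti-PD-1) the log2 ratio of Ccl4 was 2.44, and with every cell thinned to 1000 UMIs it was -0.35. A few cells carried most of the signal. The top 5% of CD8+ T cells held 65.2% of the Ccl4 UMIs with PBS and 71.7% with anti-PD-1, and the highest cell had 136 and 670 UMIs. In macrophages the top 5% held 42.0% and 32.2%. Over Y-linked cells the log2 ratio of Ccl4 was 1.47 in macrophages, 3.13 in monocytes, 2.98 in Kupffer cells, 1.44 in cDC1s, 2.18 in cDC2s, 3.92 in neutrophils and 2.69 in CD4+ T cells. Several of these rest on very little PBS data, namely 7 cDC1s, 20 cDC2s, 3 Ccl4 UMIs in neutrophils and 9 in CD4+ T cells. The ratio was 0.75 in NK cells (17 cells with PBS), below the 2-fold line, and -2.17 in γδ T cells (11 cells with PBS), the opposite sign. Those 11 cells held 144 Ccl4 UMIs, and the highest PBS γδ T cell alone had 135.

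Ccl3 had a mixed pattern, with 7 of 17 classes higher and 1 lower. In macrophages it went from 419 to 570 CPM (log2 ratio 0.44, 0.40 to 0.48), below the 2-fold line. In Kupffer cells it went from 164 to 424 CPM (1.35, 1.24 to 1.46), where 1.77% of genes were higher. In T cells with no subset UMI it went from 55.3 to 152 CPM (1.38, 1.16 to 1.60), a ratio that was 0.87 with classes taken from the nearest profile. Monocytes just missed the line, from 269 to 517 CPM (0.93, 0.79 to 1.07). Their ratio was 1.21 over Y-linked cells, past the line, and 0.49 with classes taken from the nearest profile.

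Neutrophils were the only class of the 17 in which any of the 6 genes was called lower. Their Ccl3 was 434 CPM with PBS (738 UMIs) and 208 CPM with anti-PD-1 (1216 UMIs), a log2 ratio of -1.04 (-1.17 to -0.91), where 5.13% of genes were lower. The share of neutrophils with a Ccl3 UMI after thinning was 18.1% (15.7 to 20.8) and 11.1% (9.92 to 12.4), against 1.90% and 3.99% in B cells, at median depths of 1577 and 2077.5 UMIs in neutrophils and of 1804 and 2551 in B cells. In the same cells Ccl4 went the opposite way, from 277 to 450 CPM (0.69, 0.55 to 0.83). The Ccl3 value did not hold in each reading of the data. It was -0.67 with median-ratio scaling, which takes the drop of the median neutrophil gene into account, and 0.23 over the 63 PBS and 942 anti-PD-1 Y-linked neutrophils.

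In lymphocytes the level of Ccl3 was highest in NK and ILC1-like cells, with ratios under 1. NK cells went from 463 to 719 CPM (0.63, 0.39 to 0.87) and ILC1-like cells from 415 to 721 CPM (0.79, 0.58 to 1.00), with overlapping intervals of level in both libraries. CD8+ T cells had 156 and 196 CPM (0.31), CD4+ T cells 57.1 and 71.8 CPM (0.31) and γδ T cells 254 and 226 CPM (-0.16, -0.65 to 0.32). A single PBS cell held 50 of the 66 Ccl3 UMIs of γδ T cells, and another 52 of the 127 of CD4+ T cells. Over Y-linked cells, with 22, 7 and 55 PBS UMIs, the ratios were 1.36, 1.19 and -3.52 in CD8+, CD4+ and γδ T cells. With thinned cells the CD8+ ratio was -0.43. The smallest classes were counted but not compared. Basophils and mast cells, with 21 and 20 cells, had the highest Ccl3 levels of all, 3658 and 3792 CPM, and their Ccl4 was 2768 and 8935 CPM. Plasmacytoid dendritic cells, with 54 and 32 cells, had 1775 and 4703 CPM of Ccl4, with 1 cell holding 139 of 475 and 377 of 960 UMIs. Mature dendritic cells, with 59 and 45 cells, had 269 and 162 CPM of Ccl4, but 1 PBS cell held 34 of the 78 UMIs. Their thinned share with a Ccl4 UMI was 8.47% and 9.09%.

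**Figure D2:**
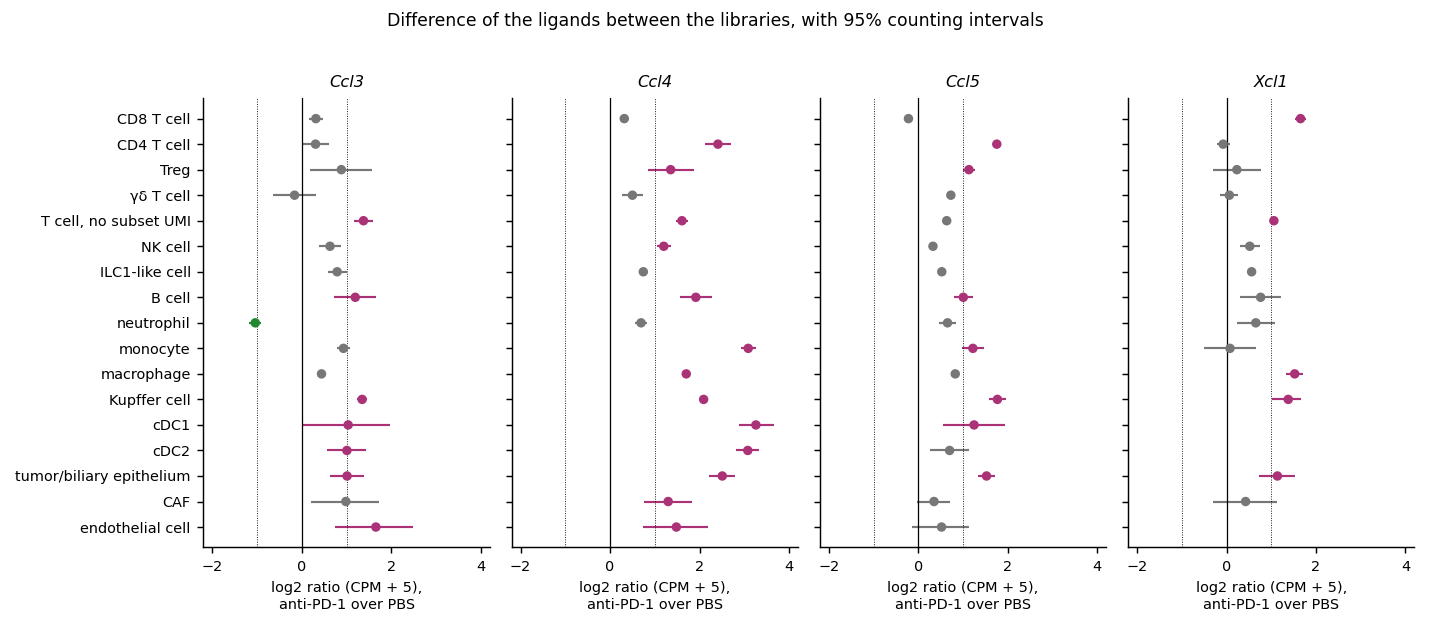
Log2 ratio of anti-PD-1 over PBS (CPM plus 5) of the 4 ligands in each of the 17 classes, with 95% intervals for counting error; colors mark ratios past 1 and past -1. Ccl4 was past 1 in 13 classes and Ccl3 in 7, and the single ratio past -1 is Ccl3 in neutrophils.

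The balance of these paired genes therefore differed between the libraries. Capture can differ between genes, so the Ccl4 share of the summed Ccl3 and Ccl4 UMIs is not read as an absolute balance. The share is compared here between libraries and between classes. It was higher with anti-PD-1 in 14 of 17 classes, and in 8 of them the intervals of both shares were apart. In macrophages it went from 58.4% (57.8 to 59.0) to 77.2% (76.7 to 77.6), in monocytes from 31.6% to 68.0%, in neutrophils from 39.0% to 68.4% and in CD4+ T cells from 42.3% to 77.3%. With anti-PD-1 macrophages and CD4+ T cells were thus close to the share of CD8+ T cells, while monocytes, neutrophils and Kupffer cells (68.5%) lay below it and cDC2s (87.7%) above. CD8+ T cells had 78.1% and 78.0%, and ILC1-like cells 80.2% and 79.7%. In CD4+ T cells a single PBS cell held 52 of the 127 Ccl3 UMIs, and without them the PBS share was 55.4%. In the few basophils and mast cells it went from 43.1% to 70.2%.

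Both genes were often found in the same macrophages. Of thinned macrophages with a Ccl3 UMI, 50.3% had a Ccl4 UMI with PBS, against 27.2% of all macrophages, and with anti-PD-1 74.1% did, against 53.0%. In monocytes with PBS 7.41% of Ccl3-positive cells had a Ccl4 UMI against 6.72% of all monocytes, but that is only 4 of 54 cells, too few to say whether the genes went together. With anti-PD-1 the shares were 66% against 36.9%. These shares describe cells within a library.

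**Figure D3:**
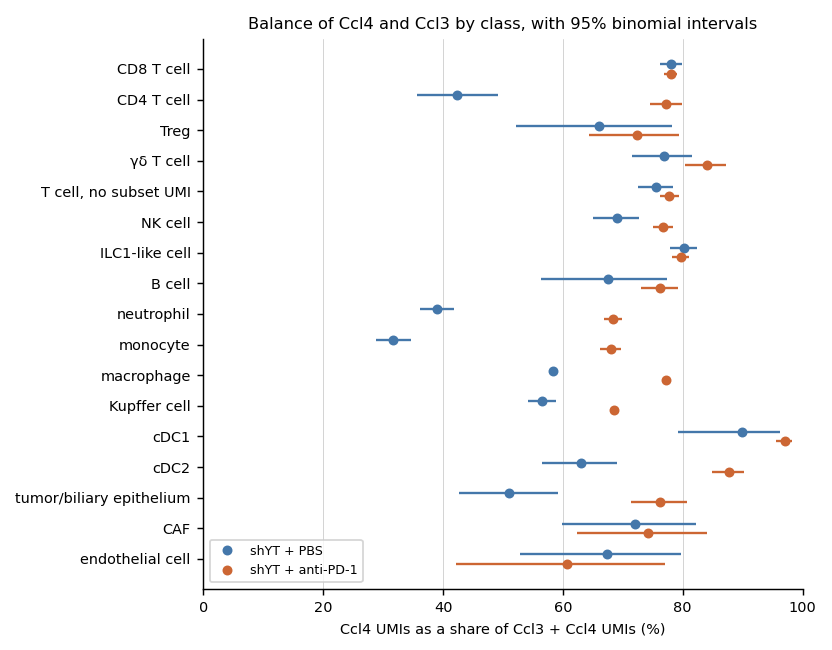
Ccl4 as a percent of the summed Ccl3 and Ccl4 UMIs in each class with PBS and with anti-PD-1, with exact binomial 95% intervals. The share moved from 31.6% to 68.0% in monocytes and from 58.4% to 77.2% in macrophages, and stayed near 78% in CD8+ T cells.

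Ccl5 was a lymphocyte transcript in both libraries. It was called higher in 7 of 17 classes and lower in 0, where 2.78% of all gene and class pairs were higher. Among the 7, B cells, Kupffer cells, cDC1s and epithelial cells had under 2 times the free lymphocyte RNA amount in both libraries. With PBS its level was highest in NK cells, from 10269 to 12890.5 CPM (log2 ratio 0.33, 0.28 to 0.38), ILC1-like cells, from 8368 to 12045.5 CPM (0.53), and CD8+ T cells, from 8225 to 7061 CPM (-0.22, -0.24 to -0.20). The PBS levels of ILC1-like cells and CD8+ T cells had overlapping intervals, and NK cells stood above both. Each of these 3 ratios stayed well inside the 2-fold line. Over Y-linked cells the ratio in CD8+ T cells was 0.43, the opposite sign. The share of CD8+ T cells with a Ccl5 UMI after thinning was 63.2% (59.9 to 66.4) and 62.8% (60.1 to 65.5), against 7.46% and 13.9% in B cells.

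T cells with less Ccl5 at the start differed more. CD4+ T cells went from 983 CPM (2188 UMIs) to 3330 CPM (10159 UMIs), a log2 ratio of 1.75 (1.69 to 1.82), where 2.25% of genes were higher. Regulatory T cells went from 679 to 1493 CPM (1.13, 1.00 to 1.27). The thinned share of CD4+ T cells with a Ccl5 UMI was 30.3% (26.7 to 34.0) and 48.1% (44.5 to 51.8). In regulatory T cells that share was 35.1% and 38.7%, and 1 anti-PD-1 cell held 171 of their 1514 Ccl5 UMIs. Over the Y-linked cells the ratio was 3.16 in CD4+ T cells but -0.22 in regulatory T cells, of which the PBS library then held 22. γδ T cells went from 4947 to 8196 CPM (0.73), which with anti-PD-1 was above CD8+ T cells, and T cells with no subset UMI from 2352 to 3656 CPM (0.64).

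Of the myeloid cells, macrophages had 210 and 376 CPM of Ccl5 (0.83, 0.77 to 0.88) and Kupffer cells 40.3 and 149 CPM (1.77, 1.58 to 1.97). Mature dendritic cells, the migratory state that carries antigen to lymph nodes, had 4509 and 7134 CPM in 59 and 45 cells. In macrophages Ccl5 was 7.81 and 4.87 times the amount that free lymphocyte RNA would give, judged from T cell marker UMIs in the same cells. In Kupffer cells it was only 1.43 and 1.86 times that amount, and in monocytes 2.97 and 2.01 times.

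Xcl1 had its highest levels in innate and γδ lymphocytes, and 5 classes were called higher. ILC1-like cells had the highest level, 2591 and 3825 CPM (log2 ratio 0.56, 0.48 to 0.65), followed by γδ T cells with 1394 and 1457 CPM (0.06) and NK cells with 536 and 771 CPM (0.52). The ILC1-like ratio was 0.03 with the stricter gate. CD8+ T cells went from 210 CPM (628 UMIs) to 673 CPM (4238 UMIs), a ratio of 1.65 (1.54 to 1.78), where 1.58% of genes were higher. CD4+ T cells stayed at 311 and 295 CPM (-0.07, -0.22 to 0.07), an interval that leaves out any 2-fold change by counting error alone. T cells with no subset UMI went from 360 to 755 CPM (1.06, 0.97 to 1.15), and the ratio was 0.68 with classes taken from the nearest profile. The other 3 higher classes had low levels, with 22.4 CPM in macrophages, 14.4 CPM in Kupffer cells and 26.1 CPM in epithelial cells with anti-PD-1, with ratios of 1.52, 1.38 and 1.14 that depend on the pseudocount, and all 3 lay near the amount that free lymphocyte RNA would give (0.824 to 2.13 times). With anti-PD-1 the levels of NK cells and of T cells with no subset UMI overlapped, and CD8+ T cells lay below both, by counting error alone.

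The CD8+ Xcl1 value was carried by few cells. The thinned share with a UMI was 10.3% (8.37 to 12.5) and 15.3% (13.3 to 17.4), against 1.39% and 3.22% in B cells. The top 5% of CD8+ T cells held 68.3% of the Xcl1 UMIs with PBS and 82.0% with anti-PD-1, and the highest single cell had 117 and 757 UMIs. Across the alternative settings the ratio stayed between 1.51 and 2.12, and over the Y-linked cells it was 1.89. In ILC1-like cells, by contrast, most cells had a UMI after thinning, 73.4% and 77.3%.

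Chemokine UMIs were also compared with what free RNA from lysed cells would give. For Ccl3 and Ccl4 the amount was scaled from marker UMIs of macrophages, neutrophils and lymphocytes found in each class. In B cells, epithelial cells, CAFs and endothelial cells the observed amount was between 0.754 and 1.60 times the expected one. In cDC1s Ccl4 was 6.56 and 20.01 times the expected amount but Ccl3 only 1.12 and 1.75 times, and in cDC2s Ccl4 was 5.68 and 19.0 times. In neutrophils Ccl3 was 26.5 and 6.61 times and Ccl4 10.1 and 4.69 times that amount. Of the 79 pairs, 18 were under 2 times the expected amount in both libraries, a line drawn after the values were seen, and 14 of these 18 were among the 33 higher pairs. Without them 19 of 61 pairs were higher, but not all 61 had an expected amount. It was worked out for Ccl3 and Ccl4 in each class, for Ccl5 and Xcl1 outside T, NK and ILC1-like cells, and for neither receptor. Over all genes 1.86% were higher in B cells, 2.97% in epithelial cells, 3.58% in CAFs and 3.63% in endothelial cells. The higher Ccl4 of epithelial cells (13.3 and 98.9 CPM) and B cells (30.1 and 127 CPM) thus lay near the free RNA amount. Whether those cells express it was not tested, and both ratios were past 1 in each of 11 other settings. With the expected amount taken off, their ratios were still 2.18 and 1.85, on few remaining UMIs (0 and 45.4 in epithelial cells, 14.9 and 187 in B cells), so that the first of them depends on the pseudocount.

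**Figure D4:**
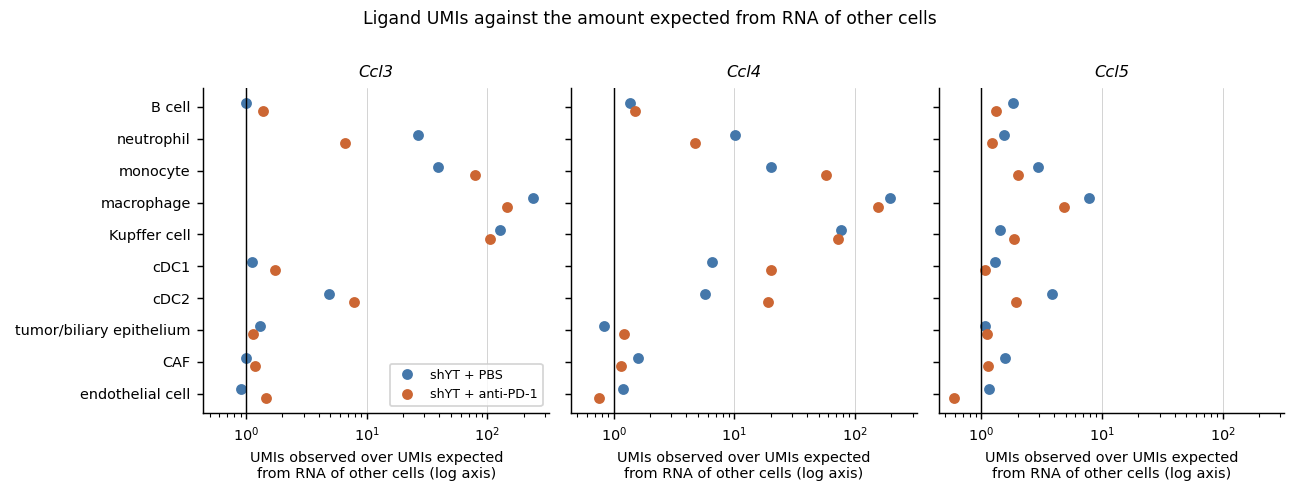
Observed UMIs of Ccl3, Ccl4 and Ccl5 over the amount expected from free RNA (ratio, log axis) in classes of each library; macrophage RNA is left out of the expectation for monocytes, macrophages and Kupffer cells, neutrophil RNA for neutrophils, and for Ccl5 only lymphocyte RNA is counted. B cells, epithelial cells, CAFs and endothelial cells lie near 1, while Ccl4 in cDC1s lies at 6.56 and 20.01.

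Of the receptor pairs 1 was called higher. Ccr1, which draws neutrophils and monocytes toward CCL3 and CCL5, was highest in neutrophils, with 861 and 988 CPM (log2 ratio 0.20, 0.12 to 0.28). Monocytes had 223 and 297 CPM (0.40, 0.23 to 0.57) and cDC2s 202 and 270 CPM (0.41, 0.11 to 0.71), with overlapping intervals between these classes in each library. Macrophages had 135 and 96.6 CPM (-0.46, -0.56 to -0.37), the only one of these with less. These values changed over Y-linked cells. The ratio there was -0.060 in neutrophils, 1.18 in monocytes, past the 2-fold line, 0.49 in cDC2s and -0.0072 in macrophages. The PBS library then held 63 neutrophils, 31 monocytes, 20 cDC2s and 339 macrophages. The thinned share of neutrophils with a Ccr1 UMI was 54.4% and 59.4%, against 0.494% and 2.43% in epithelial cells. In CD8+ T cells Ccr1 was called higher on 7 and 67 UMIs (2.34 and 10.6 CPM, ratio 1.09, 0.60 to 1.45), and the interval of the anti-PD-1 level there (8.25 to 13.5) overlapped that of epithelial cells at 16 CPM (11.5 to 21.7). The call was lost in 3 of 11 other settings, with 0.12 under the stricter gate, and was 1.8 with a pseudocount of 1 CPM.

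Xcr1 was a cDC1 transcript in both libraries. cDC1s had 599 CPM with PBS (385 UMIs in 78 cells) and 798 CPM with anti-PD-1 (622 UMIs in 58 cells), a log2 ratio of 0.41 (0.23 to 0.60). They held 75.0% and 72.5% of all Xcr1 UMIs while making up a small part of the RNA. The share with a UMI was 93.6% and 91.4% before thinning, and 43.6% (32.4 to 55.3) and 48.3% (35.0 to 61.8) after it, against 0 of 791 and 0 of 1428 thinned B cells, whose upper 95% limits were 0.465% and 0.258%. Over the Y-linked cells the ratio was 0.15. No class reached the 2-fold line for Xcr1 among the 4 counted. At the low levels of macrophages (14 and 28 UMIs) and Kupffer cells (3 and 36 UMIs) this rests on the pseudocount, since with 1 CPM in place of 5 their ratios were 1.07 and 1.39.

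**Figure D5:**
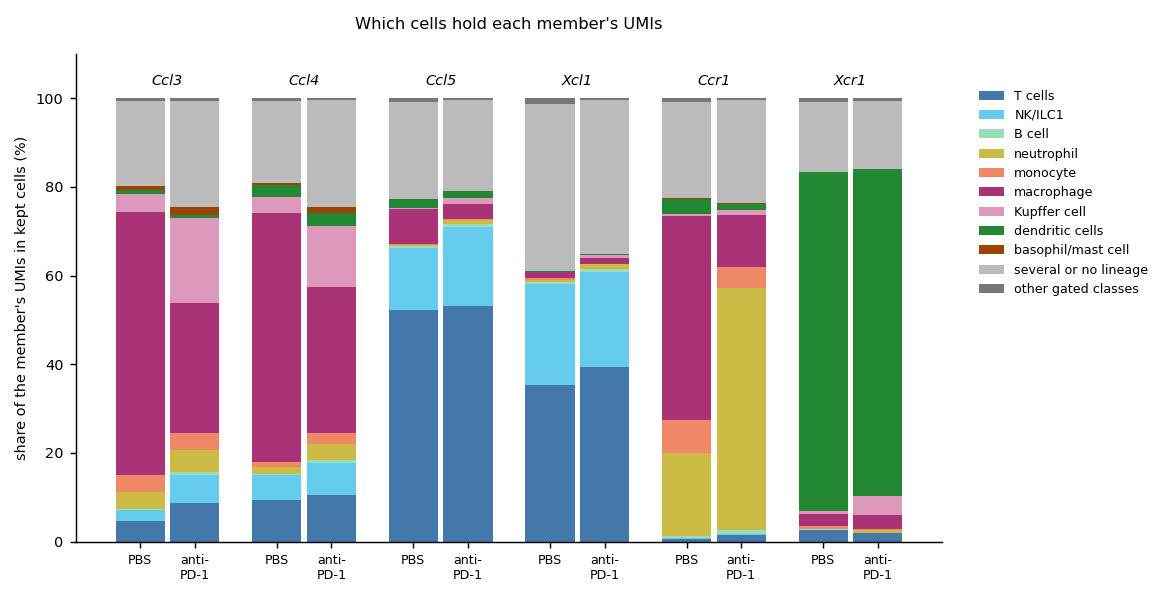
Percent of all UMIs of each gene that came from each group of cell classes, stacked to 100%, with PBS and with anti-PD-1. Macrophages gave 59.2% and 29.4% of Ccl3, neutrophils 18.7% and 54.6% of Ccr1, and dendritic cells 76.6% and 73.8% of Xcr1.

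Where the transcripts came from shifted with the cells that were captured. Macrophages gave 56.0% of Ccl4 UMIs with PBS and 32.9% with anti-PD-1, and Kupffer cells 3.72% and 13.8%. The cells behind these shares changed in number as well, from 3082 to 1386 macrophages, from 551 to 1132 Kupffer cells and from 1004 to 2556 neutrophils. T cells gave 52.4% and 53.1% of Ccl5 and 35.3% and 39.5% of Xcl1. Cells that passed no lineage or several held 15.4% to 37.7% of a gene's UMIs. Over all kept cells the fold of anti-PD-1 over PBS was 2.71 for Ccl4, 2.6 for Xcl1, 1.98 for Ccl5, 1.33 for Ccl3, 1.38 for Ccr1 and 1.70 for Xcr1. With the class mix held at that of the PBS library the folds were 3.15 for Ccl4, 1.92 for Xcl1, 1.41 for Ccl5, 1.46 for Ccl3, 1.02 for Ccr1 and 1.46 for Xcr1. The mix alone, with PBS levels kept, gave 0.942 for Ccl4, 1.55 for Ccl5 and 1.23 for Ccr1. Cells of no lineage or of several entered these folds as classes of their own. Thus Ccl4 differed within classes and Ccl5 in both ways. The Ccr1 fold of 1.02 at the PBS mix joins classes with more, such as neutrophils (log2 ratio 0.20), and with less, such as macrophages (-0.46). The number of cells of a class in a library is set by dissociation as well as by the tissue.

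Other genes of these pathways were read from short lists. Of the other ligands of Ccr1 (Ccl6, Ccl7 and Ccl9), 15 of 42 gene and class pairs were higher and 1 lower. In neutrophils, where Ccr1 was highest, Ccl6 had 2466 and 3616 CPM (0.55), Ccl9 48.2 and 26.0 CPM (-0.78) and Ccl7 1 and 65 UMIs. Ccl7, a monocyte attractant, was higher in 7 of its 11 classes, and in macrophages, a class chosen after its values were seen, it went from 37.4 to 225 CPM (2.44).

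Of the cytokines of activated lymphocytes 11 of 76 pairs were higher and 4 lower, with a median of 0.14. In ILC1-like cells, where Ccl4 was highest among the compared classes, 1 of the 5 counted was higher, Csf2 (26.7 and 76.5 CPM, 1.36), a growth factor for myeloid cells, and Ifng, Tnfsf14 and Tnf were at 0.59, 0.60 and 0.52. Ifng in CD8+ T cells, named after its value was seen, was 59.3 and 183 CPM (1.55). It was the 1 gene called higher there among 8 counted, of which 2 were above 0, with a median of -0.26. Of the transcription factors known at the ligand genes 22 of 145 pairs were higher and none lower, and all 22 were Rel or Irf1. Rel, the c-Rel subunit of NF-κB, was higher in 15 of 17 classes, and in ILC1-like cells it was 33.3 and 147 CPM (1.98). Irf1, an interferon-induced factor, was higher in 7 of 17. Rela, Nfkb1, Nfatc1 and Tbx21 were called in no class, with ratios between -0.84 and 0.57.

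The dissociation stress list holds immediate early and heat shock genes that tissue digestion itself can induce, and many of its pairs were higher too. Of its 272 gene and class pairs 128 were higher and 3 lower (median 0.93), against 2.78% higher over all genes. The median was 1.38 in macrophages, with 10 of 16 genes higher and all 16 above 0, 1.18 in monocytes, 1.17 in Kupffer cells, 1.04 in cDC1s and 0.81 in cDC2s. It was 0.76 in CD8+ T cells, 0.69 in CD4+ T cells, 0.54 in ILC1-like cells and 0.24 in neutrophils. The highest medians were in CAFs (2.27), endothelial cells (1.78) and epithelial cells (1.78), whose Ccl3 and Ccl4 lay near the free RNA amount. Nr4a1, an immediate early gene that T cell receptor signals also induce, was higher in 17 of 17 classes and had 145 and 861 CPM in ILC1-like cells (2.53), beside Atf3 (2.63), Fosb (2.20) and Junb (1.29). Activated macrophages and lymphocytes can also express these genes. The part of dissociation stress in the ligand differences was not tested.

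Across the 34 sums of 17 classes in 2 libraries, genes whose log levels went closely with each member were found among 11766 genes. The sums of a class share their markers and depth, so the correlations only describe where each gene is expressed. Ccl3 went with Fcer1g (Pearson r = 0.869), Ccl4 (0.861) and Lilr4b (0.819), and Ccl4 with Ccl3 and Rgs1 (0.770). Ccl5 went with Nkg7 (0.971), Txk (0.965) and Sytl3 (0.964), and Xcl1 with Cd160 (0.971), Klrc1 (0.968) and Gzmb (0.966). Ccr1 went with Mcemp1 (0.947), Sirpb1b (0.914) and Gapt (0.907), and Xcr1 with Gpr33 (0.976), Gpr141b (0.974) and Gramd2 (0.970).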

How the data were processed

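Single-cell RNA-seq libraries had been made from dissociated tumor-bearing livers with the Singleron GEXSCOPE kit. The authors deposited UMI counts per gene and barcode, 1 matrix per library, on mm10, made with Singleron's Cell Scope per the study's methods, and the submitters' processing notes name Seurat 4.3. The aligner within it and the rule that chose the deposited barcodes are not given in the sources used here. From these deposited counts, cells were kept if between 500 and 5000 genes were detected in them and no more than 10% of UMIs were mitochondrial. A cell was placed in a class if it reached 3 to 5 detected markers of 1 lineage only, and cells reaching several were left out. The exception was a cell that passed both the T cell and the NK/ILC1 gate, which was kept as a T cell. NK/ILC1 markers summed to 1001 and 1424 CPM in γδ T cells, and to 456 and 645 CPM in T cells with no subset UMI. T cell markers summed to 1377 and 1525.5 CPM in ILC1-like cells and to 718 and 741 CPM in NK cells. The NK/ILC1 markers of ILC1-like cells summed to 2974 and 2643 CPM. The marker minimums were chosen after the markers, but not the member genes, had been looked at. T cell subsets needed 1 UMI of a subset gene. T cells with Cd8 UMIs beside those of Cd4 or Foxp3 fitted no subset and stayed among T cells with no subset UMI. No doublet caller was run. UMIs were summed per library and class, with exact Poisson intervals for levels and Clopper-Pearson intervals for shares of cells, thinned to 1000 UMIs with shallower cells left out. These cover counting error only. The ratio uses a pseudocount of 5 CPM.

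Library totals were 121713441 and 100807037 UMIs, and the kept cells had medians of 3159 and 2990 UMIs. Each group has 1 library, so no test between groups was made. The members and the 4 gene lists (other ligands of Ccr1, lymphocyte cytokines, transcription factors, dissociation stress) were chosen with earlier results of these data known. A gene related to the members and the list that held it are not reported here. Up to 4 genes of a list were named, those furthest from 0 in the class where the member beside them was highest. Sequences and positions come from GRCm38 with the GENCODE vM21 annotation. The ratio and its interval were tested on simulated counts. Work was done in Python 3.11.15 with numpy 2.4.6, pandas 2.3.3, scipy 1.17.1 and matplotlib 3.10.9. Alternatives covered the cell filters, gate, scaling, pseudocount, thinning, free RNA and Y-linked cells. 2 of them, the stricter subset gate and the free RNA of Ccl3 and Ccl4, were added after seeing the data.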

Additional observations from a re-analysis of the deposited data

Results flagged for a closer look

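Ccl3 went in opposite directions in different classes of the same pair of libraries. In neutrophils its log2 ratio of anti-PD-1 over PBS was -1.04. In 7 other classes it was past 1: T cells with no subset UMI (1.38), B cells (1.19), Kupffer cells (1.35), cDC1s (1.04), cDC2s (1.01), epithelial cells (1.01) and endothelial cells (1.66). Each group is 1 library, so the difference between the classes was not tested. Several of these signs turned under another setting: over Y-linked cells Ccl3 was 0.23 in neutrophils and -0.18 in endothelial cells, with thinned cells it was -1.83 in cDC1s, and with the stricter gate it was -0.90 in cDC2s. In B cells, cDC1s, epithelial cells and endothelial cells the Ccl3 UMIs were under 2 times the amount expected from free RNA in both libraries.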

How the results depend on the processing

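No paired analysis was possible because each group has 1 library. Of 865 ratios of a gene in a class under 13 alternative settings, 47 changed sign, 10 of them in pairs called higher or lower, and 611 stayed within counting error of their value. Of 158 differences in shares of cells, 112 stayed within it and 1 called difference changed sign. The 33 higher pairs became 22 (of 62 counted) with thinned cells and at most 37 under other settings; 25 of them kept their sign under each setting and 13 stayed past 1. The 1 lower pair became 0 with the stricter gate and with median-ratio scaling, 2 with cells of a second lineage left out, with free lymphocyte RNA taken off and with at least 2 UMIs for a T cell subset, and 5 of 73 with Y-linked cells only. Over Y-linked cells 11 signs changed, 4 of them in called pairs: Ccl5 in regulatory T cells (-0.22) and Ccl3 in neutrophils (0.23), cDC2s (-0.0053) and endothelial cells (-0.18). The others included Ccl4 and Xcl1 in γδ T cells (-2.17 and -1.71), Xcl1 in monocytes (-2.24), Ccl5 in cDC2s (-0.75) and Ccl5 in CD8+ T cells (0.43). Ccl3 in cDC1s was -1.83 with thinned cells, and in cDC2s -0.90 with the stricter gate, which also turned the difference in the share of ILC1-like cells with a Ccl3 UMI to -2.86 points. With free RNA taken off, Ccl5 in cDC1s was -0.13, Xcl1 in epithelial cells -0.053, Ccl4 in CAFs -0.084 and Ccl4 in endothelial cells -0.65. The cause of these changes was not tested. The nearest class profile kept 94.8% and 94.0% of gated cells in their class.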
